A study of Mus musculus with 48 samples.

Results

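The effect of the inhibitory designer receptor hM4Di on astrocytes was read from 8 of the 48 libraries of the series, namely the 4 hM4Di and the 4 control cargo immunoprecipitated (IP) libraries of R6/2 mice. The libraries were chosen by their labels alone. All 8 came from the striatum of R6/2 mice of strain C57, which carry the first exon of the human huntingtin gene with an expanded CAG repeat and are used as a model of Huntington's disease. In all 8, an adeno-associated virus (AAV) had expressed Rpl22-HA, a ribosomal protein with a hemagglutinin tag, in striatal astrocytes for 3 weeks. Ribosomes were then pulled down through the tag, so an IP library samples RNA bound to astrocyte ribosomes, and an input library of the same mouse samples the whole lysate. The 4 hM4Di mice are labelled R6/2 with hM4Di and the 4 control mice R6/2 with control cargo. The series' design text says that the Gi-coupled receptor pathway was activated in striatal astrocytes of R6/2 mice. The labels name neither an agonist, nor its dose or time, nor the promoter that drove hM4Di, nor the cargo of the control virus, and the mice's age is given only as adult. By their titles, each of the 8 R6/2 mice gave an IP and an input library. In the MPTP group of the series, an input and an IP library of the same replicate number carry different animal names. No wild-type group with hM4Di was analysed here, so every value below is an effect within R6/2 mice.

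hM4Di is a mutated human muscarinic receptor that no longer answers acetylcholine and is switched on by designer drugs such as clozapine N-oxide. Like GABA-B, adenosine and cannabinoid receptors, it couples to Gi proteins, which lower cyclic AMP through adenylyl cyclase and release G-protein beta-gamma subunits. In astrocytes, Gi-coupled receptors are also known to raise intracellular calcium, and astrocytes of the striatum clear glutamate and potassium around the projection neurons that Huntington's disease affects. Immediate early genes, such as Fos and the Nr4a receptors, are transcribed within minutes of a calcium or kinase signal and serve as markers of recent cell stimulation.

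The hM4Di IP libraries held 46029689 to 54492373 counts and the control cargo IP libraries 46864925 to 52450772. Levels are given in CPM, which are counts scaled to the library's total, after adjustment by the trimmed mean of M values (TMM). As a check of the labelled cell type, all 30 astrocyte markers were more than 2-fold higher in IP than in input of R6/2 mice, with a median log2 ratio of 2.36. The median log2 ratio was -4.94 for microglia markers, -3.08 for endothelial and mural markers, -0.75 for medium spiny neuron markers and -0.01 for oligodendrocyte markers. Markers of striatal interneurons (median 1.49, 11 of 15 more than 2-fold higher in IP) and of ependymal and choroid plexus cells (median 1.71, 9 of 12) were also enriched, so the enrichment was not limited to the astrocyte list. No pair of replicates differed by sampling noise alone: chi-square per degree of freedom was between 15.2 and 61.1 in the 12 pairs of the same group. On the first principal component, which held 46.3% of the variance, the hM4Di libraries stood at 5.9, 28.6, 48.4 and 7.2 and the control cargo libraries at -23.1, -19.1, -18.5 and -29.3, so hM4Di replicates 2 and 3 lay farthest from the controls. In bulk libraries, fewer cells of a type and less RNA per cell cannot be told apart. The names of the libraries point to separate mice, and p-values measure the spread between them.

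Chrm4, the mouse gene for the muscarinic receptor from which hM4Di was built (chromosome 2, 91927249 to 91928688, GRCm38), had 837, 550, 826 and 793 CPM in hM4Di IP libraries, against 47.6, 36.6, 42.0 and 63.9 CPM in control cargo IP libraries. The groups were far apart in every library, and the log2 fold change was 3.98 ± 0.21 (SE, n = 4 each) with an adjusted p of 8.0e-05 (quasi-likelihood F test of edgeR, adjusted by Benjamini-Hochberg over all genes tested, as for every adjusted p below unless another tool is named). Whether these reads come from the transgene or from the mouse gene was not tested. Rpl22, the gene of the tagged protein, had 264, 228, 291 and 263 CPM in hM4Di libraries, against 553, 285, 586 and 635 CPM in control cargo libraries. Control cargo replicate 2 lay within the hM4Di range, and Rpl22 fell by 0.98 ± 0.22 on the log2 scale (adjusted p = 0.021). That call was lost without control cargo replicate 1 or without hM4Di replicate 2 (largest adjusted p = 0.061), and how far Rpl22 reads come from the virus was not tested.

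The IP libraries of R6/2 mice differed broadly between hM4Di and control cargo, with more rises than falls. Most changes in both directions were under 2-fold, and a few rises were very large. Markers of cells other than astrocytes were among the genes that moved, as given below. Of 15159 genes tested, 2227 were called at an adjusted p under 0.05 (14.7%). Of these, 1374 were higher in hM4Di (9.06% of the genes tested) and 853 were lower (5.63%). With upper-quartile in place of TMM scaling the split was 1221 higher and 1190 lower, and on deposited FPKM values 1458 higher and 479 lower. Without hM4Di replicates 2 and 3 together, 464 genes were called, 387 higher and 77 lower. The 1374 higher genes had a median log2 fold change of 0.51, and 274 of them changed more than 2-fold, 91 more than 4-fold and 33 more than 8-fold. The 853 lower genes had a median of -0.28, and 12 of them changed more than 2-fold and 0 more than 4-fold. IP over input was also read in the vehicle and wild-type groups of the series. By its labels, the vehicle group had vehicle microinjected into the striatum. In these groups, 30.9% of the higher genes were enriched more than 2-fold in IP. The share was 7.50% of the lower genes and 12.2% of all genes tested. The lower genes were also longer, with a median length of 4946 bases against 2863 bases for the higher genes and 2928 bases for all. They were more highly expressed as well, with a median average log2 CPM of 6.599, against 4.567 for the higher genes and 4.494 for all. Whether the difference in length holds among genes of equal expression was not tested.

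**Figure D1:**
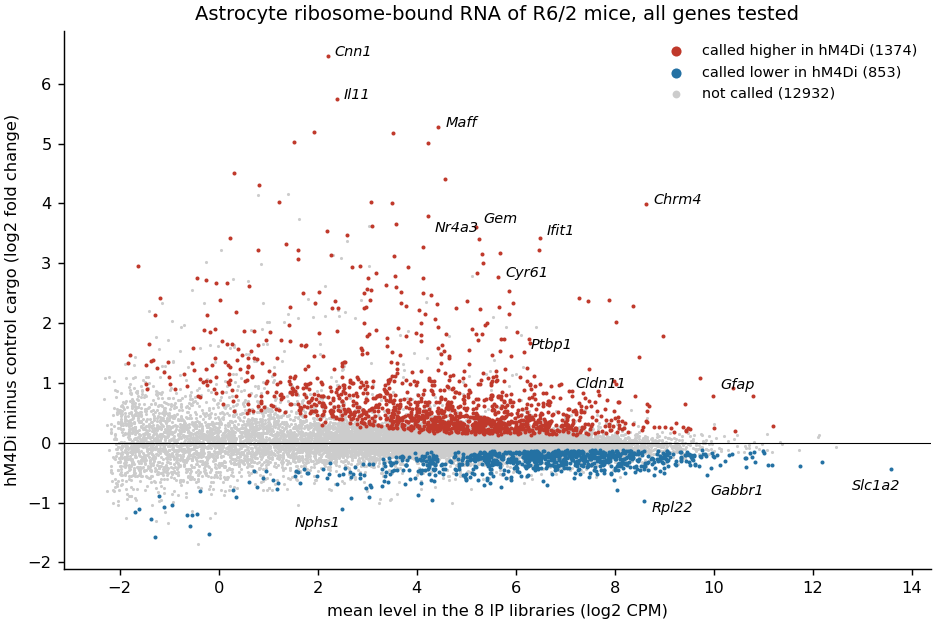
Log2 fold change (hM4Di minus control cargo) of all 15159 genes tested against their mean log2 CPM in the 8 IP libraries, with called genes in colour and not called genes in grey. The 1374 higher genes reach 6.47 on the log2 scale (Cnn1), and called falls reach 1.57 log2 units. The largest fall named is -1.11 (Nphs1), among called genes with a descriptive symbol, non-overlapping libraries and an average log2 CPM of 1 or more.

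Immediate early genes were one of the groups with rises. Of 22 tested, 11 were called higher and 0 lower, with a median log2 fold change of 1.76 against 0.01 for all genes tested. Fos, the AP-1 subunit used as a marker of recent activity, had 51.2, 103, 79.3 and 26.5 CPM in hM4Di libraries, against 6.44, 8.46, 8.29 and 13 CPM in control cargo libraries. The groups did not overlap, and Fos rose by 2.84 ± 0.40 (adjusted p = 0.0050). Nr4a1, an orphan nuclear receptor induced by stimulation, had 65.3, 113, 62.9 and 48.6 CPM with hM4Di, against 8.14, 9.88, 9.02 and 9.17 CPM with control cargo. The controls were tight and all hM4Di libraries lay well above them. Its relatives rose as well, Nr4a1 by 3.00 ± 0.24, Nr4a2 by 2.57 ± 0.19 and Nr4a3 by 3.79 ± 0.35. Nr4a3 had 24.3, 27.4, 62.3 and 24.8 CPM with hM4Di, against 2.06, 2.76, 2.15 and 3.09 CPM with control cargo, so that hM4Di replicate 3 was high while the other three lay together. The number of calls in this group was between 10 and 13 when any of the 8 libraries was left out, and 10 without hM4Di replicates 2 and 3 together. The mean level of the list was 1.35, 2.23, 1.85 and 0.98 log2 units above the control cargo mean in the hM4Di libraries, against -0.24, -0.13, -0.11 and 0.48 in the control cargo libraries. Control cargo replicate 4 was therefore the highest control, though below every hM4Di library.

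Gem, a small GTPase that restrains voltage-gated calcium channels and the cytoskeleton (chromosome 4, 11704457 to 11714752, GRCm38), gave the smallest p of the comparison. It had 63.0, 58.9, 92.4 and 57.8 CPM in hM4Di libraries, against 5.02, 5.24, 6.23 and 5.85 CPM in control cargo libraries. Every hM4Di library lay about an order of magnitude above every control, and the log2 fold change was 3.61 ± 0.17 (adjusted p = 6.7e-05). It was called under each of the 20 alternatives run. Of the other RGK GTPases, Rem2 (-0.77, adjusted p = 0.066) and Rrad (0.55, adjusted p = 0.32) were not called, though each was without control cargo replicate 4.

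Among AP-1 and stress transcription factors, 11 of 16 tested were called higher and 0 lower, with a median of 1.48. The count was 6 without control cargo replicate 1, 7 without hM4Di replicate 2 and between 9 and 13 without each other library. Maff, a small Maf protein that pairs with other leucine zipper factors, had 24.1, 28.6, 91.2 and 24.4 CPM in hM4Di libraries, against 0.75, 0.93, 0.88 and 1.78 CPM in control cargo libraries, a log2 fold change of 5.28 ± 0.57 (adjusted p = 0.0025). Its relative Mafk rose by 1.18 ± 0.15. Atf3, a stress-induced repressor, rose by 3.48 ± 0.73, Fosl1, a Fos relative, by 4.03 ± 0.79, and Cebpb, a factor of inflammatory and metabolic genes, by 2.01 ± 0.23. Of these, Atf3 lost its call without control cargo replicate 1 (adjusted p = 0.058). Crem, a cyclic AMP response gene, had 17.7, 16, 32.8 and 17.5 CPM in hM4Di libraries, against 11.0, 10.9, 10.1 and 11.1 CPM in control cargo libraries, and rose by 0.96 ± 0.21 (adjusted p = 0.021, and up to 0.058 when a library was left out).

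**Figure D2:**
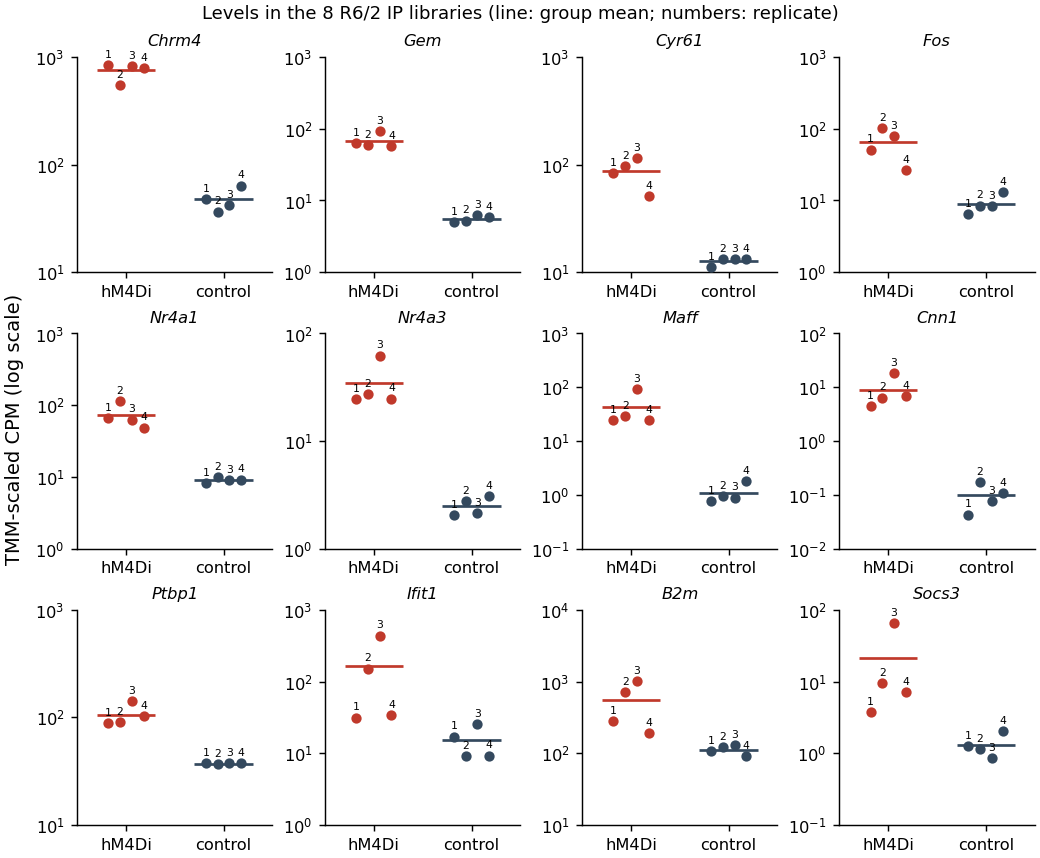
TMM-scaled CPM on a log axis for 12 genes in each hM4Di (left) and control cargo (right) IP library, with the group mean as a line and the replicate number above each point. Chrm4, Gem, Nr4a1, Maff and Ptbp1 separate all libraries by a wide gap, whereas Ifit1, B2m and Socs3 are led by hM4Di replicates 2 and 3. Separation was a condition for naming the largest rises, Chrm4, Gem and Maff among them.

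Genes of the actin cytoskeleton and of its transcription factors SRF and YAP formed another group with rises. SRF, with its actin-sensing partners, and YAP, with TEAD factors, switch on contractile and matrix genes when cells remodel their actin. Of 18 such genes tested, 12 were called higher and 0 lower, with a median of 0.90. Cnn1, calponin, an actin-binding protein of smooth muscle, made the largest rise of the comparison. It had 4.49, 6.39, 18.4 and 6.73 CPM in hM4Di libraries, against 0.043, 0.17, 0.077 and 0.11 CPM in control cargo libraries, where these levels rest on 2, 8, 4 and 5 counts. Control levels were close to nothing and the log2 fold change was 6.47 ± 0.61 (adjusted p = 0.0015). Cnn2, another calponin, had 11.3, 10.002, 13.9 and 10.4 CPM with hM4Di, against 1.55, 0.91, 1.5 and 2.01 CPM with control cargo, and rose by 2.93 ± 0.22. Cyr61, a secreted matrix protein and YAP target, had 82.9, 97.2, 116 and 51.3 CPM with hM4Di, against 11.1, 13.3, 13.3 and 13.3 CPM with control cargo, and rose by 2.76 ± 0.22 (adjusted p = 0.00086). Myl9, a myosin light chain, rose less, by 0.85 ± 0.08, with 19.6, 17.0, 19.8 and 15.6 CPM in hM4Di libraries, against 10.2, 10.1, 9.71 and 10.1 CPM in control cargo libraries. The count of calls in this list lay between 11 and 13 when any library was left out. Thbs1, a thrombospondin that astrocytes secrete and that promotes synapse formation, was at 12.9, 13.4, 55.7 and 7.07 CPM with hM4Di, against 6.65, 7.72, 4.96 and 5.08 CPM with control cargo. The groups overlapped and it was not called (1.87 ± 0.59, adjusted p = 0.062), though it was without hM4Di replicate 4. Its relative Thbs2 rose by 0.67 ± 0.15 (adjusted p = 0.023), a call lost in 5 of the 8 fits without a library.

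The promoters of this group were searched for the letters to which SRF binds. Of the 12 called genes, 10 had a promoter in the RefSeq table (GRCm38.p6, 250 bases before to 50 after the start), and 3 of these 10 held a CArG box, which is SRF's palindromic motif, against 1.29% of 11229 promoters of genes tested. The search for this motif was added after the values were seen. The list is one of SRF and YAP target genes, so a share above that of all promoters can follow from its membership alone. Whether the box marks the members that rose was not tested. Capitals mark the boxes in the promoter of Srf (chr17:46556113-46556412, minus strand), where they begin 82 and 62 bases before the start, and of Myl9 (chr2:156775214-156775513, plus strand), where the box begins 161 bases before it. Srf itself had 62.8, 70.6, 61.2 and 46.6 CPM in hM4Di libraries, against 28.7, 27.8, 28.4 and 36.1 CPM in control cargo libraries, and rose by 0.99 ± 0.13. A match is a description of the letters and not a bound site.
Srf: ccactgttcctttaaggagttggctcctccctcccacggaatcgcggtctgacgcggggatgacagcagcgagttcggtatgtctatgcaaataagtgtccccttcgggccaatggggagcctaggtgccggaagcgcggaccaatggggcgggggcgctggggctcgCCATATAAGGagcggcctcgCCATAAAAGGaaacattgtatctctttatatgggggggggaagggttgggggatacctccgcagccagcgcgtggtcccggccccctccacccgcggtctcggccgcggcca
Myl9: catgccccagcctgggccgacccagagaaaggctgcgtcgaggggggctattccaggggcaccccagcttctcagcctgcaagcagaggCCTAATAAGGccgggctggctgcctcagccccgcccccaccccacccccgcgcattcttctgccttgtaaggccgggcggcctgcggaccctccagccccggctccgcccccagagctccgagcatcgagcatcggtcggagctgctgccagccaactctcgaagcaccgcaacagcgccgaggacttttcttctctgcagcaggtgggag

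Cytokines of the IL-6 family and their STAT3 pathway, which drives astrocyte reactivity, had 8 of 14 genes tested called higher and 0 lower, with a median of 1.04. Il11, a cytokine of this family, had 2.79, 5.07, 26.8 and 6.05 CPM in hM4Di libraries, against 0.19, 0.21, 0.17 and 0.17 CPM in control cargo libraries, and rose by 5.74 ± 0.84 (adjusted p = 0.0054). Lif, a related cytokine, had 5.93, 10.05, 9.37 and 6.73 CPM with hM4Di, against 1.27, 0.98, 2.40 and 2.08 CPM with control cargo, and rose by 2.25 ± 0.30. Osmr, the receptor subunit of oncostatin M, rose by 1.33 ± 0.29, and Stat3 itself by 0.75 ± 0.16. Neither was called without control cargo replicate 1, and Osmr was not called without control cargo replicate 4 either. Socs3, the feedback inhibitor that STAT3 induces, had 3.73, 9.55, 64.6 and 7.21 CPM with hM4Di, against 1.25, 1.14, 0.87 and 2.01 CPM with control cargo. hM4Di replicate 3 stood far above the rest, and the log2 fold change of 4.02 ± 0.93 (adjusted p = 0.024) was no longer called without any one of the 4 control cargo libraries (largest adjusted p = 0.072). The number of calls in the list lay between 2 and 8 when a library was left out, with 2 without control cargo replicate 1. The promoter of Socs3 (chr11:117969317-117969616, minus strand) holds, 154 bases before the start, 1 match (capitals) to the palindrome TTCNNNGAA, which STAT proteins bind. That pattern was as frequent in promoters of higher genes (6.86% of 1050) and of lower genes (6.80% of 618) as in all (6.82% of 11229). The AP-1 motif TGANTCA was in 5.62% of the promoters of higher genes, 3.88% of those of lower genes and 4.83% of all. It was in 0 of the 11 promoters found for the 15 largest rises and in 2 of the 11 found for the 15 largest falls. The palindromic cyclic AMP response element was in 2.38% of the promoters of higher genes, 2.10% of those of lower genes and 3.21% of all. It was in 0 of the 11 for the largest rises and in 0 of the 11 for the largest falls.
Socs3: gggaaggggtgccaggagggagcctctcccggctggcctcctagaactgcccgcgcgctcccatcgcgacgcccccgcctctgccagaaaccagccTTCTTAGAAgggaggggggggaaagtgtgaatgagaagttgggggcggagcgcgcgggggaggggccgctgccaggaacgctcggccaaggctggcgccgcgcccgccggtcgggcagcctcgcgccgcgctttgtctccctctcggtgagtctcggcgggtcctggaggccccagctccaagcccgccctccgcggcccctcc

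The highest median of the lists was that of interferon-stimulated genes, with a very uneven size among the hM4Di mice. Of 25 tested, 19 were called higher and 0 lower, with a median of 2.36. Ifit1, an antiviral RNA-binding protein (chromosome 19, 34640871 to 34650009, GRCm38), had 31.3, 152, 437 and 33.6 CPM in hM4Di libraries, against 17.1, 9.20, 25.3 and 9.30 CPM in control cargo libraries. All hM4Di libraries were above all controls, replicates 1 and 4 only just, and the log2 fold change was 3.42 ± 0.87 (adjusted p = 0.033, and up to 0.084 when a library was left out). Ifi44 had 3.89, 27.6, 146 and 3.49 CPM with hM4Di, against 2.00, 1.70, 3.35 and 1.44 CPM with control cargo, with the same pair of libraries in front (4.41 ± 1.21, adjusted p = 0.042). Summed over the list, hM4Di libraries held 712, 2033, 4704 and 706 CPM, against 505, 422, 633 and 374 CPM in control cargo libraries. The 19 calls were few in most fits without a library: 0 without hM4Di replicate 2, 5 without hM4Di replicate 3, 1 without both, 0 without control cargo replicate 1 or 4, 1 without control cargo replicate 2 and 3 without control cargo replicate 3. They numbered 24 without hM4Di replicate 1 and 22 without hM4Di replicate 4, and limma-voom called 1 of the 25. The median was 1.51 without hM4Di replicate 3 and 0.77 without both replicates, still above that of all genes. In whole striatal lysate the same 25 genes had a median of 1.57, with 0 of the 3 genes called there among them.

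MHC class I genes, which present peptides to cytotoxic T cells, moved in the same libraries. Of 15 tested, 11 were called higher and 0 lower, with a median of 2.27. In input their median was 1.40, with 0 called there. B2m, the light chain shared by all class I molecules, had 282, 719, 1007 and 190 CPM in hM4Di libraries, against 108, 122, 129 and 90.2 CPM in control cargo libraries, and rose by 2.29 ± 0.48 (adjusted p = 0.017, and 0.054 without control cargo replicate 1). Psmb9, a subunit of the immunoproteasome, rose by 2.27 ± 0.54, and Tap2, a peptide transporter, by 1.16 ± 0.23. Psmb9 lost its call in 5 of the 8 fits without a library (largest adjusted p = 0.080) and Tap2 in 1. The count of calls was 3 without hM4Di replicate 2 or 3 or control cargo replicate 3 or 4, 4 without control cargo replicate 2, 0 without control cargo replicate 1, and 2 by limma-voom. Reads of Oas1a, Gbp9, Ifit1 and the MHC genes can be shared with close paralogs, so their split between family members is uncertain. Microglia markers had 0 of 16 called, and their sum was 61.6, 68.9, 73.0 and 66.3 CPM with hM4Di, against 59.3, 57.4, 63.0 and 64.3 CPM with control cargo. Called or not, 14 of the 16 were higher with hM4Di and 2 lower, with a median of 0.24 in IP and 0.28 in input. Of the 17 markers in the list, 6 were under 1 CPM in all 8 IP libraries. Of 15 markers of peripheral immune cells only 3 passed the filter on low counts, and 0 of these were called. The part of immune cells in the interferon rise was not tested beyond these values.

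Interferon-responsive promoters carry repeats of GAAA. Of the 19 called interferon-stimulated genes, 14 had a RefSeq promoter, and 6 of these 14 (42.9%) held 2 copies of GAAA parted by any 2 bases, on either strand, as did 2 of 9 promoters of called MHC class I genes and 2.89% of 11229 promoters in all. This search, too, was added after the values were seen. Here as well, the excess can follow from the membership of the lists alone, and whether the repeats mark the members that rose was not tested. Capitals mark the matches in Ifit1 (chr19:34640639-34640938, plus strand), which begin 104 and 85 bases before the start, and in Oas1a (chr5:120907476-120907775, minus strand), the gene of an RNA-sensing oligoadenylate synthetase, where 2 overlapping matches begin 20 and 14 bases before the start. Oas1a rose by 4.03 ± 1.07 (adjusted p = 0.037, and up to 0.093 when a library was left out).
Ifit1: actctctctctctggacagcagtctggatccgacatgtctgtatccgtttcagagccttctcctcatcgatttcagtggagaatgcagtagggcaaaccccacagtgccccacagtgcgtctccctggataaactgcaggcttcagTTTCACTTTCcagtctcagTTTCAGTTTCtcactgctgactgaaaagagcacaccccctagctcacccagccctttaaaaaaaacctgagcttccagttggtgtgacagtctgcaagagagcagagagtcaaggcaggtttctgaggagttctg
Oas1a: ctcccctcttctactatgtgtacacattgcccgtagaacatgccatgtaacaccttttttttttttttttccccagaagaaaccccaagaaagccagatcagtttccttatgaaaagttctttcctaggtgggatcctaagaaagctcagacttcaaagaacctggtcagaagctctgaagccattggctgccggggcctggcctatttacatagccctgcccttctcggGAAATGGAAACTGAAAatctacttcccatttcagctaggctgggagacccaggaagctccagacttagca

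Genes of reactive astrocytes were read from lists that overlap those above. Of the pan-reactive list, 5 of 11 tested were called higher and 0 lower. The counts were 6 of 11 and 0 for the A1-type list and 7 of 11 and 0 for the A2-type list. Their medians were 1.03, 1.80 and 1.11 in IP, against 0.55, 1.17 and 0.32 in input, where 0 members were called. The list names come from published responses to inflammation and ischemia, and several A1-type members are themselves interferon or MHC genes. The A1-type calls numbered 0 or 1 without any one of the control cargo libraries or hM4Di replicates 2 and 3, and 7 without hM4Di replicate 1 or 4. The pan-reactive calls ranged from 2 to 7 and the A2-type calls from 2 to 8 when a library was left out, with 2 in each list without control cargo replicate 1. The A2-type calls numbered 3 without control cargo replicate 2, 3 or 4 and 4 without hM4Di replicate 2, and the pan-reactive calls 3 without control cargo replicate 4. Gfap, the intermediate filament that marks reactivity, had 978, 1448, 1578 and 1114 CPM in hM4Di libraries, against 799, 670, 916 and 605 CPM in control cargo libraries. The groups did not overlap, and Gfap rose by 0.77 ± 0.17 (adjusted p = 0.022, and up to 0.060 when a library was left out). Vim, another intermediate filament, had 272, 331, 437 and 312 CPM with hM4Di, against 193, 154, 162 and 156 CPM with control cargo, and rose by 1.03 ± 0.14 (adjusted p = 0.0044). Serpina3n, a secreted protease inhibitor of reactive astrocytes, rose by 1.44 ± 0.20. C4b, a complement component, had 465, 936, 1434 and 274 CPM with hM4Di, against 210, 199, 259 and 233 CPM with control cargo. It rose by 1.79 ± 0.44 (adjusted p = 0.029, and up to 0.081 when a library was left out), and 6 of 13 complement genes were called higher and 0 lower. The complement list had a median of 0.54 in IP and of 0.81 in input, where 0 members were called. Only 1 complement gene was called without control cargo replicate 1, 3 or 4 or without hM4Di replicate 2, and 3 without control cargo replicate 2 or hM4Di replicate 3.

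Of 27 genes of cholesterol synthesis and export, for which astrocytes are the main supplier of the adult brain, 8 were called higher and 0 lower, with a median of 0.53. Insig1, a sterol sensor, rose by 1.25 ± 0.31 and Hsd17b7, a synthesis enzyme, by 1.08 ± 0.27. Insig1 was not called without control cargo replicate 1, 2 or 4, and Hsd17b7 not without any one of the 4 control cargo libraries. The count of calls in this list ranged from 1, without control cargo replicate 4, to 10, without hM4Di replicate 3.

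Several rises lay outside these groups. Ptbp1, a splicing repressor, had 88.9, 91.0, 141 and 103 CPM in hM4Di libraries, against 37.4, 36.8, 37.3 and 37.5 CPM in control cargo libraries, which were nearly identical. It rose by 1.51 ± 0.14 (adjusted p = 0.0014). Its paralog Ptbp2, which neurons use, had 136, 127, 135 and 145 CPM with hM4Di, against 171, 170, 173 and 175 CPM with control cargo, and fell by 0.34 ± 0.04 on the log2 scale. Cmklr1, the chemerin receptor, had 4.43, 3.12, 13.4 and 8.35 CPM with hM4Di, against 0.17, 0.13, 0.19 and 0.30 CPM with control cargo, and rose by 5.20 ± 0.55. Pfkfb3, which speeds up glycolysis, had 85.8, 87.7, 88.2 and 72.3 CPM with hM4Di, against 49.3, 53.7, 45.4 and 54.7 CPM with control cargo, and rose by 0.72 ± 0.08. Sesn2, a stress sensor, rose by 0.79 ± 0.05, Bag3, a co-chaperone, by 1.59 ± 0.24, and Cdkn1a, a cell cycle inhibitor, by 0.79 ± 0.10. Glycolysis genes as a list had 5 of 25 called higher and 1 lower, where 9.06% and 5.63% of all genes tested were called. The higher calls numbered 3 without hM4Di replicate 2 or any one of the control cargo libraries. The list's median was -0.03, with 10 members higher and 15 lower, called or not. The nuclear genes of the respiratory chain had 0 of 36 called in either direction, with a median of 0.02.

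**Figure D3:**
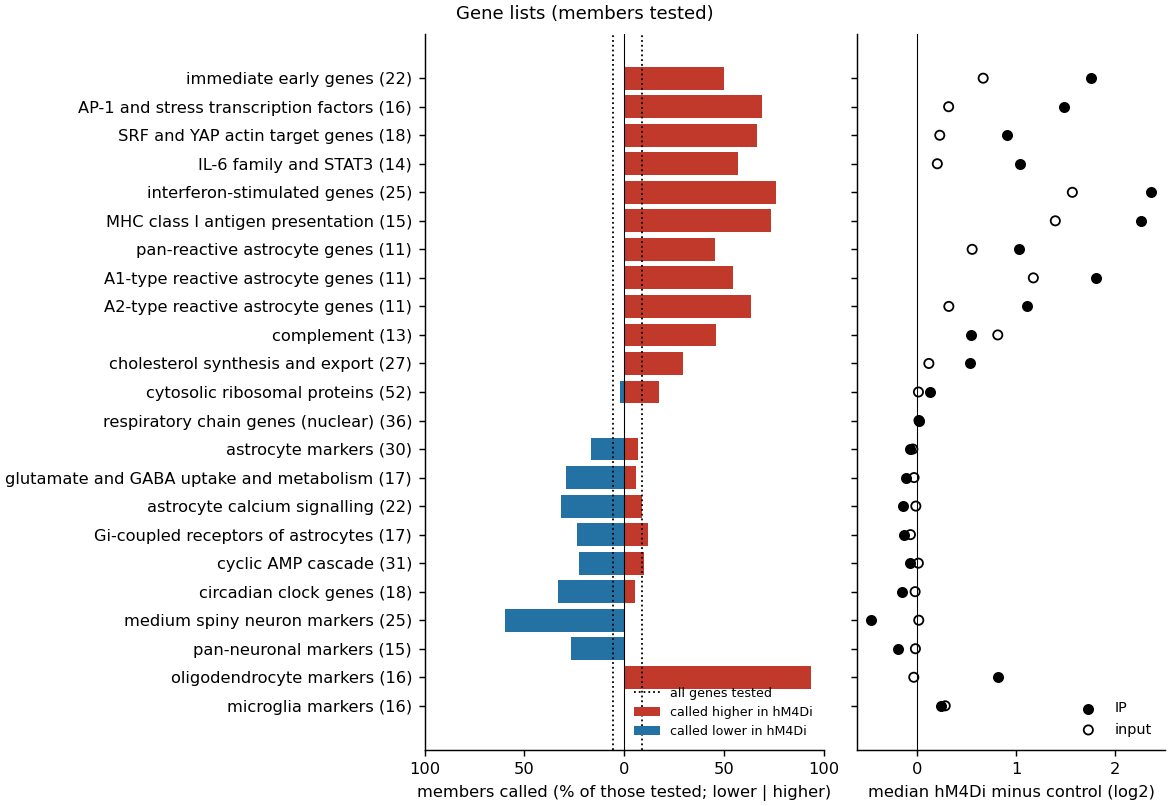
Left, share of each list's tested members that were called higher (right of 0) or lower (left of 0) in hM4Di, with dotted lines at the shares for all genes tested (9.06% and 5.63%); right, median log2 fold change of the list in IP (filled) and in input (open). Oligodendrocyte and interferon lists have the largest shares called higher and medium spiny neuron markers the largest share called lower.

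Some genes of the astrocyte's supportive work fell, by small amounts, and others were not called. Of 30 astrocyte markers, 5 were called lower and 2 higher, with a median of -0.07 that was 0.03 without control cargo replicate 3. Slc1a2, the main glutamate transporter of the forebrain (chromosome 2, 102658659 to 102790784, GRCm38), had 10757, 10748, 10407 and 9880 CPM in hM4Di libraries, against 13818, 14005, 14954 and 13769 CPM in control cargo libraries. Every hM4Di library was below every control, and Slc1a2 fell by 0.44 ± 0.05 on the log2 scale (adjusted p = 0.0030). Slc1a2 averaged 876 FPKM in hM4Di and 1158 FPKM in control cargo libraries, and Chrm4 averaged 274 and 16.9 FPKM. Since the origin of the Chrm4 reads was not tested, how its level per length compares with that of Slc1a2 is uncertain. Glul, glutamine synthetase, which turns glutamate into glutamine, had 3271, 3071, 2740 and 2865 CPM with hM4Di, against 3493, 3950, 4205 and 4017 CPM with control cargo, and fell by 0.39 ± 0.07. Aldoc, the brain aldolase, fell by 0.38 ± 0.06 and Ndrg2, an astrocyte-enriched protein, by 0.37 ± 0.05. Slc1a3, the other astrocyte glutamate transporter, was at 2185, 2038, 2045 and 1991 CPM with hM4Di, against 2108, 2227, 2359 and 2253 CPM with control cargo, and was not called (-0.12, adjusted p = 0.14). Kcnj10, the Kir4.1 potassium channel that is reduced in Huntington's disease models, was not called either (-0.05 ± 0.20, adjusted p = 0.89). It was at 718, 436, 432 and 703 CPM with hM4Di, against 494, 652, 720 and 506 CPM with control cargo, and both groups spanned the same range. Neither Gja1, a gap junction protein (-0.21, adjusted p = 0.093), nor S100b, a calcium-binding protein (0.07, adjusted p = 0.75), was called.

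Receptors and messengers linked to Gi signalling had calls in both directions, the higher ones near the share for all genes tested (9.06%). The share called lower among all genes tested was 5.63%. Of 17 Gi-coupled receptor genes, Chrm4 among them, 2 were called higher and 4 lower, with 2 lower without control cargo replicate 1 or hM4Di replicate 2 or 4. Gabbr1, the GABA-B receptor subunit that binds GABA, had 784, 763, 751 and 747 CPM in hM4Di libraries, against 1096, 1019, 1178 and 1138 CPM in control cargo libraries, and fell by 0.54 ± 0.05 (adjusted p = 0.0015). Lpar1, a lysophosphatidic acid receptor that is also abundant in oligodendrocytes, had 97.0, 113, 97.3 and 93.1 CPM with hM4Di, against 49.6, 59.2, 47.8 and 38.6 CPM with control cargo, and rose by 1.04 ± 0.12. Cnr1, the cannabinoid receptor, fell by 0.30 ± 0.05. Gnai2, a Gi alpha subunit, had 236, 246, 241 and 233 CPM with hM4Di, against 215, 206, 229 and 200 CPM with control cargo, with a log2 fold change of 0.17 ± 0.05 (adjusted p = 0.046). That call was lost in 13 of the 20 alternatives run, RLE and upper-quartile scaling and 7 of the 8 fits without a library among them (largest adjusted p = 0.11). In the cyclic AMP cascade, 3 of 31 genes were called higher and 7 lower: Pde8a, a phosphodiesterase, rose by 0.69 ± 0.12 and Pde4d, another, by 0.34 ± 0.06, while Prkacb, a catalytic subunit of protein kinase A, fell by 0.20 ± 0.04. The 7 lower calls became 1 without hM4Di replicate 2, 3 or 4 or without control cargo replicate 1. Of 22 calcium signalling genes, 2 were called higher and 7 lower, with 1 to 7 lower when a library was left out. Plcb1, a phospholipase C, fell by 0.35 ± 0.05 and Grm5, a metabotropic glutamate receptor, by 0.42 ± 0.08, and Itpr2, the calcium release channel of astrocytes, was not called (-0.16, adjusted p = 0.40). Neurons express Grm5, Cnr1, Plcb1 and Gabbr1 too, and the levels of neuronal markers in the same libraries are given below. Of 18 circadian clock genes, 6 were called lower and 1 higher. Nr1d1, a clock repressor, fell by 0.62 ± 0.09 and Arntl, a core clock factor, by 0.36 ± 0.05, whereas Per1 rose by 0.73 ± 0.11.

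**Figure D4:**
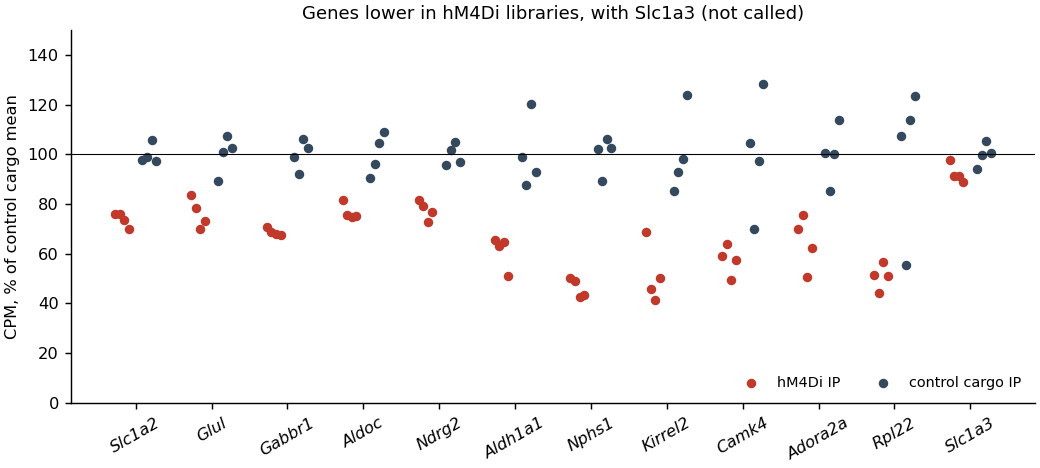
CPM of 12 genes in each hM4Di (red, left) and control cargo (dark, right) IP library as a percentage of the control cargo mean. Slc1a2, Gabbr1 and Nphs1 separate every library, whereas control cargo replicate 2 lies within the hM4Di range for Rpl22, and Slc1a3, which was not called, overlaps. Separation was a condition for naming the largest falls, Nphs1 among them.

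The 15 largest falls were taken among called genes with a descriptive symbol, non-overlapping libraries and an average log2 CPM of 1 or more. They were small beside the largest rises. Nphs1, nephrin, an adhesion protein of the kidney filter, had 3.82, 3.74, 3.25 and 3.30 CPM in hM4Di libraries, against 7.77, 6.78, 8.09 and 7.80 CPM in control cargo libraries. It fell by 1.11 ± 0.10 on the log2 scale (adjusted p = 0.0012), and its partner Kirrel2, a nephrin-like adhesion protein, by 0.96 ± 0.17. Hes5, a Notch target that keeps glia and progenitors undifferentiated, had 13.9, 11.2, 6.49 and 14.9 CPM with hM4Di, against 24.7, 18.2, 19.6 and 22.2 CPM with control cargo, and fell by 0.87 ± 0.23 (adjusted p = 0.036, and up to 0.094 when a library was left out). It was the only one of 15 Notch genes called. Camk4, a calcium-dependent kinase, fell by 0.80 ± 0.16, Lpl, lipoprotein lipase, by 0.74 ± 0.14, Aldh1a1, a retinoic acid enzyme, by 0.71 ± 0.11, and Gdf10, a growth factor of the TGF-beta family, by 0.69 ± 0.08.

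Markers of other cells in the pull-down moved with the treatment. Of 16 oligodendrocyte markers, 15 were called higher and 0 lower, with a median of 0.82, and their sum was 5296, 7695, 5984 and 6389 CPM in hM4Di libraries, against 3729, 4187, 3666 and 2982 CPM in control cargo libraries. The groups did not overlap, none of the 16 markers was at 0, and 13 to 16 were called when any library was left out. Mog, a myelin surface protein, had 84.4, 122, 100 and 104 CPM with hM4Di, against 57.6, 61.8, 54.2 and 46.4 CPM with control cargo, and rose by 0.90 ± 0.12. In input, the same gene was at 85.6, 111, 92.8 and 98.0 CPM with hM4Di, against 106, 109, 109 and 95.1 CPM with control cargo, and the 16 markers had a median of -0.04 there. The median log2 IP over input ratio of the 16 markers was 0.29, 0.52, 0.43 and 0.50 in hM4Di mice, against -0.29, -0.22, -0.36 and -0.59 in control cargo mice. Whether myelin genes were more abundant on astrocyte ribosomes, or oligodendrocyte RNA came down in larger amounts, was not tested.

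Markers of medium spiny neurons went the other way. Of 25 medium spiny neuron markers, 15 were called lower and 0 higher, with a median of -0.46, against 0.01 in input. Their sum was 4019, 3835, 3885 and 3843 CPM in hM4Di libraries, against 5309, 4347, 4952 and 6768 CPM in control cargo libraries, and none was at 0. Adora2a, the adenosine receptor of striatopallidal neurons, fell by 0.63 ± 0.13. Lower calls in this list lay between 5 and 24 when a library was left out. Of 15 pan-neuronal markers 4 were called lower, and 0 without control cargo replicate 1 or hM4Di replicate 2. Striatal interneuron markers had 0 of 15 called. The astrocyte markers summed to 33002, 32754, 31840 and 31272 CPM with hM4Di, against 36111, 37848, 41283 and 36722 CPM with control cargo, and their median IP over input ratio was 2.36, 2.28, 2.32 and 2.36 in hM4Di mice, against 2.39, 2.30, 2.57 and 2.26 in control cargo mice. The sums of astrocyte, oligodendrocyte and medium spiny neuron markers did not overlap between the groups, and the IP over input ratio of the astrocyte markers did. The part of these other cells in the falls and rises above was not tested.

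**Figure D5:**
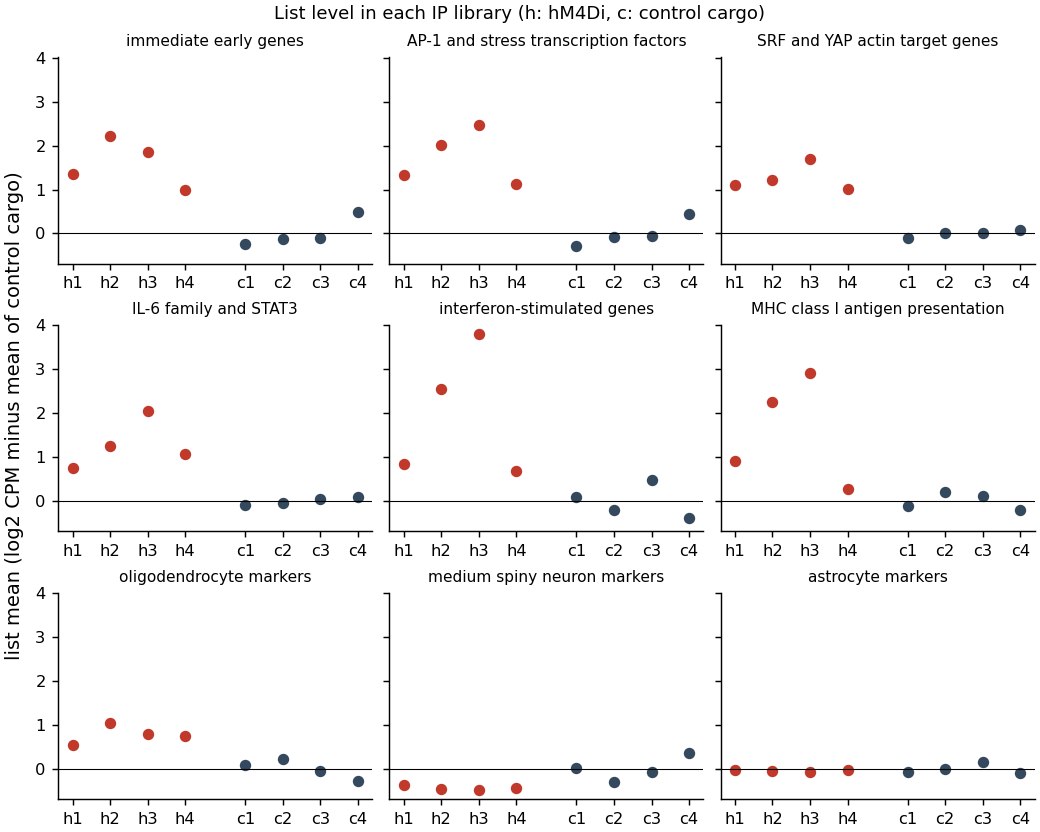
Mean log2 level of 9 gene lists in each IP library relative to the control cargo mean, hM4Di replicates on the left (h1 to h4) and control cargo replicates on the right (c1 to c4). Immediate early, SRF and oligodendrocyte lists are above 0.5 in all 4 hM4Di libraries, and so is the interferon list (0.84, 2.55, 3.80 and 0.70). Interferon and MHC lists are far higher in h2 and h3 than in h1 and h4.

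In the input libraries of the same mice, few genes were called. Of 15168 genes tested, 3 were called (0.0198%), namely Chrm4, Gem and Cyr61, all higher, with 1163 at an unadjusted p under 0.05 and 53 called by DESeq2. Gem was at 7.77, 7.56, 13.5 and 9.46 CPM in hM4Di input, against 1.17, 1.72, 1.5 and 1.35 CPM in control cargo input, a rise of 2.74 ± 0.22. Cyr61 rose by 2.21 ± 0.21 and Chrm4 by 3.14 ± 0.15 in input. Fos was at 9.74, 70.0, 16.4 and 11.0 CPM in hM4Di input, against 3.24, 7.95, 7.24 and 7.10 CPM in control cargo input, and was not called there (2.07, adjusted p = 0.48).

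The difference between the effect in IP and the effect in input was tested in 15880 genes, and 492 were called (3.1%), 302 with a higher (1.9%) and 190 with a lower effect in IP (1.2%) (294 and 280 with RLE scaling). Same-numbered IP and input libraries come from the same mouse, and with the mouse as a block the count was 2761, of which 1327 were higher and 1434 lower. Cnn2 was at 6.07, 6.61, 7.82 and 7.90 CPM in hM4Di input, against 5.23, 5.02, 4.10 and 7.64 CPM in control cargo input, and its effect was 2.55 ± 0.29 log2 units larger in IP (adjusted p = 0.0029). Cmklr1 had an effect 4.55 ± 0.57 larger in IP and Ptbp1 one 1.24 ± 0.16 larger, while the effect on Gabbr1 was 0.48 ± 0.06 lower in IP than in input. Of 16 oligodendrocyte markers 14 were called in this comparison, and 16 with the mouse block. For interferon-stimulated genes 0 of 25 were called without the block and 20 with it, and for medium spiny neuron markers 4 and 24 of 25.

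Other experiments of the series gave astrocyte IP libraries of the same design (n = 4 each). One compared mice treated with MPTP, which kills dopaminergic neurons, against vehicle. By their labels, MPTP was given in 4 doses scaled to body weight, and both MPTP and vehicle were microinjected into the striatum. The other compared SAPAP3 knockout mice, a model of compulsive grooming, against wild type. With all 24 IP libraries fitted together, the hM4Di effect minus the MPTP effect was called in 657 of 15753 genes (4.17%), 454 higher (2.88%) and 203 lower (1.29%), and the hM4Di effect minus the SAPAP3 knockout effect in 472 (3%), 358 higher (2.27%) and 114 lower (0.724%). Gem changed by -0.08 ± 0.17 with MPTP and by 0.01 ± 0.17 with SAPAP3 knockout, and its hM4Di effect was 3.67 and 3.58 log2 units higher than these (adjusted p = 2.7e-09 and 5.8e-09). Nr4a3, with -0.06 ± 0.26 and 0.00 ± 0.26 in these 2 experiments, had an hM4Di effect 3.83 and 3.77 higher. Ptbp1 had an hM4Di effect 1.56 higher than with MPTP and 1.43 higher than with SAPAP3 knockout. Slc1a2 was at -0.27 ± 0.13 with MPTP and 0.18 ± 0.13 with SAPAP3 knockout, and neither difference from its hM4Di effect was called (adjusted p = 0.57 and 0.057). The experiments differ in genotype and in control, and these counts ranged from 267 to 1255 and from 244 to 823 when single libraries were left out.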

How the data were processed

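RNA from striatal tissue of R6/2 mice was sequenced as IP and input libraries. Total RNA was made into libraries with a stranded kit after ribosomal RNA depletion, per the labels' protocols. The submitters' processing notes name STAR, HTSeq and the genome build mm10; versions, annotation and the strand setting are not given in the sources used here. The deposited count table holds raw counts per gene for all 48 libraries, and the deposited FPKM table holds counts per length and total counts, as recomputed from both tables. The tables hold 24058 symbols, and 2 symbols that fill 4 rows are not named. No column was left unmapped.

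The members and gene lists (34 of function, 10 of cell types) were chosen with earlier results of these data known. Genes were filtered with filterByExpr by group, scaled by TMM and tested with edgeR's quasi-likelihood F test (edgeR 4.0.16, limma 3.58.1, DESeq2 1.42.0, R 4.3.3), with p-values adjusted by Benjamini-Hochberg over all genes tested. The 8 IP libraries were fitted alone, the 8 input libraries likewise, IP minus input over 16 libraries, and the comparison with the other experiments over 24 IP libraries. The code was tested on simulated data. Log2 CPM used a prior count of 2, and FPKM values were tested as log2(FPKM + 1) with limma-trend in genes with a mean FPKM of at least 0.1.

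Genes named are 14 fixed ones, the 15 largest rises and the 15 largest falls with non-overlapping libraries and an average log2 CPM of at least 1, up to 4 per list by smallest p, and 5 per comparison of effects; gene models without a descriptive symbol, Xist and Y-linked genes were passed over. Srf was named for its promoter after its values were seen. Some genes that this rule names are not reported here. Coordinates are from GENCODE M21 (GRCm38), and promoters from RefSeq (GRCm38.p6). IP and input libraries of a mouse deviated together (r = 0.39 to 0.64, each of the 8 best with its own). Between hM4Di and control cargo the numbers share no mouse. The precision follows from 46029689 to 54492373 counts per IP library, and p-values cover the spread between the 4 libraries of a group.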

Additional observations from a re-analysis of the deposited data

Results flagged for a closer look

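Single libraries stood apart from the other three of their group for 21 of 154 sets of 4 values by Dixon's test, where chance gives about 1 in 20, or 7.7. Of these, 12 were high values of hM4Di replicate 3. They were Cnn1 (18.4 CPM), Il11 (26.8), Maff (91.2), Nr4a2 (18.4), Nr4a3 (62.3), Gem (92.4), Crem (32.8), Socs3 (64.6), Ifi44 (146), Thbs1 (55.7), Insig1 (183) and Hsd17b7 (101 CPM). hM4Di replicate 2 was low for Chrm4 (550 CPM), replicate 4 for Aldh1a1 (62.6) and Pfkfb3 (72.3), and replicate 1 was high for Aldoc (2135 CPM). Among control cargo libraries, replicate 4 was high for Rem2 (34.9 CPM), Rrad (0.79) and Srf (36.1), replicate 3 was high for Itpr2 (144) and replicate 1 was low for Cyr61 (11.1 CPM).

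The hM4Di effect differed between IP and input, by a test of the difference itself, for Cmklr1 (4.55 log2 units), Cnn2 (2.55), Ptbp1 (1.24) and Gabbr1 (-0.48).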

How the results depend on the processing

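No gene called and named here changed sign under any alternative run. Of the 44 list medians, 10 changed sign under at least 1 alternative, among them astrocyte markers (-0.07, and 0.03 without control cargo replicate 3) and respiratory chain genes (0.02, and -0.02 without control cargo replicate 4). For the hM4Di effect in IP, 2227 genes were called, and the count was 3454 with DESeq2 (1603 of them lower), 3636 with all 16 R6/2 libraries in the fit (1737 lower), 3728 at an adjusted p threshold of 0.1 (2118 higher and 1610 lower) and 464 without hM4Di replicates 2 and 3 together (387 higher and 77 lower). The lower calls numbered 479 on FPKM values. Without single libraries the count ranged from 892 to 2130, with 606 to 1382 higher and 286 to 884 lower, the fewest without control cargo replicate 1. RLE and upper-quartile scaling, other filters, limma-voom and leaving out Xist and Y-linked genes kept the count within 1.5 times.

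The replicate number as a block gave 1601 calls, 564 of them lower, and 6 in input, all higher. The labels do not say that a number links hM4Di with control cargo mice, so the block is only an alternative there. For hM4Di replicates 1 to 4, deviations correlated with those of the same-numbered control by -0.006, 0.11, 0.094 and 0.031. The best other number gave 0.11, 0.045, 0.004 and 0.030. Whether a number marks a shared day or batch was not tested. For IP minus input the mouse is a true block and gave 2761 calls (1327 higher, 1434 lower) in place of 492.

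In input, 3 genes were called, 5 with no filter beyond 1 read (all higher) and 53 with DESeq2 (43 higher, 10 lower), with 3 to 4 when a library was left out (0 to 1 lower). IP minus input gave 302 higher and 190 lower calls, but more lower than higher with DESeq2 (1111, of which 517 higher and 594 lower) as with the mouse block, and 201 to 733 without single libraries (150 to 414 higher, 51 to 359 lower). hM4Di minus MPTP gave 1341 with DESeq2 (781 higher, 560 lower), 130 lower with no filter, and 267 to 1255 without single libraries (225 to 822 higher, 42 to 433 lower). hM4Di minus SAPAP3 knockout gave 943 with DESeq2 (589 higher, 354 lower), and 244 to 823 without single libraries (198 to 576 higher, 39 to 247 lower). The cause of these moves was not tested.

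With 4 libraries per group, list counts moved widely when a library was left out: interferon-stimulated genes had 0 to 24 of 25 called higher, MHC class I genes 0 to 14 of 15, A1-type genes 0 to 7 of 11, and medium spiny neuron markers 5 to 24 of 25 called lower.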
